A study of Arabidopsis thaliana with 4 samples.

Results

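KUA1 (KUODA1, AT5G47390) is a MYB-like transcription factor, and AT1G19000, AT1G74840, AT1G70000, AT3G16350, AT5G61620, AT5G56840, AT1G49010, AT5G08520 and AT5G58900 are its relatives among the R1-type MYB-like factors of Arabidopsis thaliana. These 10 loci were listed by family membership, and 9 of them were matched by locus to an ATH1 probe set of their own out of 22746 probe sets tested. AT5G56840 was not matched to a probe set and was not analysed here. Gene expression had been measured in 14-day-old whole seedlings of KUA1-IOX, made in the Col-0 ecotype, in 2 groups of 2 biological replicates with 1 Affymetrix ATH1 array each. The induced seedlings received 15 µM estradiol dissolved in ethanol for 4 h in liquid medium, and the mock seedlings received ethanol alone for the same time. Seedlings of both groups therefore carried the XVE construct, in which a constitutively expressed chimeric factor enters the nucleus when estradiol is present and transcribes KUA1 from the LexA promoter. No array holds estradiol-treated seedlings without the construct, so estradiol and KUA1 induction cannot be told apart. For mock samples, the genotype field of the labels reads control while their titles read KUA1-IOX, and the titles, which match the methods, were followed. The number of independent transgenic lines behind these samples is not stated by the labels or the methods.

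In this family, KUA1 carries a central MYB-like domain that binds DNA. The R2R3 MYB factors, by contrast, carry repeats in tandem. In rice, MYBS proteins of the family bind an element of alpha-amylase promoters and act in sugar responses, and in Antirrhinum the family member DIVARICATA sets the identity of ventral petals. RefSeq also lists KUA1 under the name MYBH, for a role in hypocotyl elongation, and the study followed it in leaf growth. The comparison addresses whether transcripts of the relatives moved when KUA1 was switched on.

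After estradiol KUA1 stood far above its mock level, whereas none of its 8 measured relatives reached a 2-fold difference between geometric means. KUA1 had signals of 1887 and 3373 in estradiol-treated seedlings, against 203 and 170.2 in mock-treated seedlings. Both estradiol arrays lay above both mock arrays, and the lowest of the 4 comparisons of single arrays still gave a log2 difference of 3.22 and the highest 4.31. The mean signal was 2630 ± 1051 after estradiol and 187 ± 23.2 in mock (SD, n = 2 arrays each). On the log2 scale the difference was 3.76 (SE 0.29), which is 13.6-fold with a 95% interval of 8.21-fold to 22.5-fold. The signal does not separate transcripts of the construct from those of the endogenous gene.

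The KUA1 signal differed between the estradiol replicates, though with 1 array each the extent of the induction and array noise cannot be told apart. Replicate 2 was 1.79-fold brighter for KUA1 than replicate 1, while the mock arrays lay 1.19-fold apart. Only 5 of the 22746 probe sets had a larger log2 fold change, the nearest of them at 3.89. In limma, a linear model that shares the spread between replicates across probe sets, the adjusted p of KUA1 was 0.158 (Benjamini-Hochberg over all probe sets). It shared this value, the smallest of all, with 7 other probe sets. At an adjusted p under 0.05, 0 of the 9 genes were called, and 0% of all probe sets. Without adjustment, KUA1 and AT1G49010 were the 2 of the 9 with a limma p under 0.05, against 6.51% of all probe sets. The thresholds named by the study, at least 2-fold with P below 0.05 in an unadjusted test of each gene, were passed by KUA1 as higher, against 0.629% of all probe sets, and by 0 of the 9 as lower, against 0.528%. These were applied to log2 signals, and KUA1 is also on the study's own list of changed genes, which was chosen on these arrays. On linear signals KUA1 missed them. Apart from the arrays, the paper's quantitative PCR of the induced line marked KUA1 as significantly higher. An exact permutation test of 2 against 2 arrays cannot give a p below 0.333, so single genes were compared in the fit across all probe sets.

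**Figure D1:**
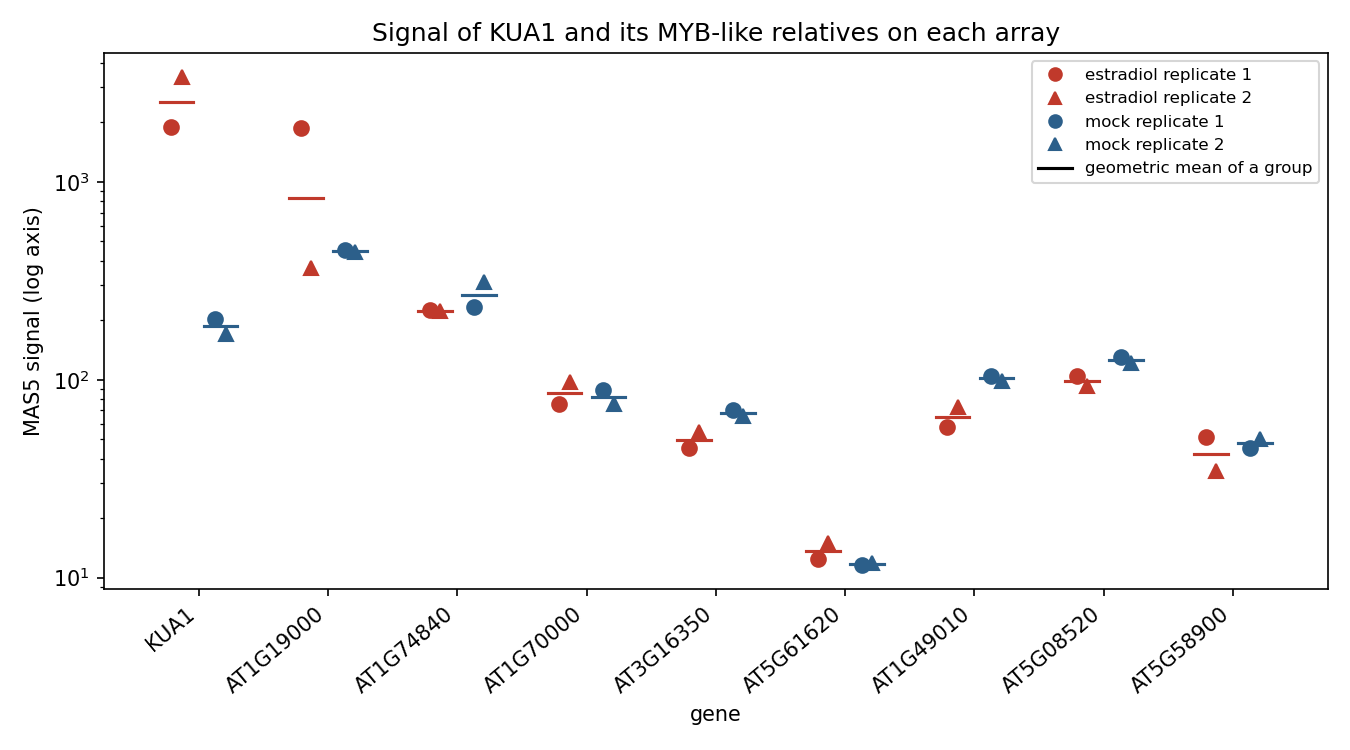
MAS5 signal on a log axis of KUA1 and its 8 measured relatives, with each array a point (circles replicate 1, triangles replicate 2, red estradiol, blue mock) and each bar the geometric mean of a group. KUA1 lies at 1887 and 3373 after estradiol and at 203 and 170.2 in mock, and AT1G19000 has a single high point of 1880 on estradiol replicate 1.

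Among the relatives, AT1G19000 had the most uneven signal. It stood at 1880 on estradiol replicate 1 and at 368 on estradiol replicate 2, against 452 and 440 in mock-treated seedlings. A single array was thus high, and the other estradiol array lay below both mock arrays. The estradiol replicates differed 5.11-fold and the mock replicates 1.03-fold. The log2 fold change was 0.90 (SE 0.71), with a 95% interval of -0.85 to 2.65 (limma, adjusted p = 0.943), and the ratio of linear means was 2.52. Leaving out estradiol replicate 1 gave -0.28 and leaving out estradiol replicate 2 gave 2.08, so the direction rested on that array. The excess of estradiol replicate 1 over the highest of the other 3 arrays was 4.15-fold, the 6th largest among 13236 probe sets that were dim in neither group. Dim stands for a mean log2 signal that fell short of the group's 40th percentile, since no detection calls were used. The size of the difference between the 2 estradiol arrays ranked 20th among the same probe sets, of which 344, or 2.60%, lay more than 2-fold apart. KUA1 itself was lower on estradiol replicate 1 than on replicate 2, the opposite order, and the size of its difference ranked 576th. What set estradiol replicate 1 apart for AT1G19000 was not tested.

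**Figure D2:**
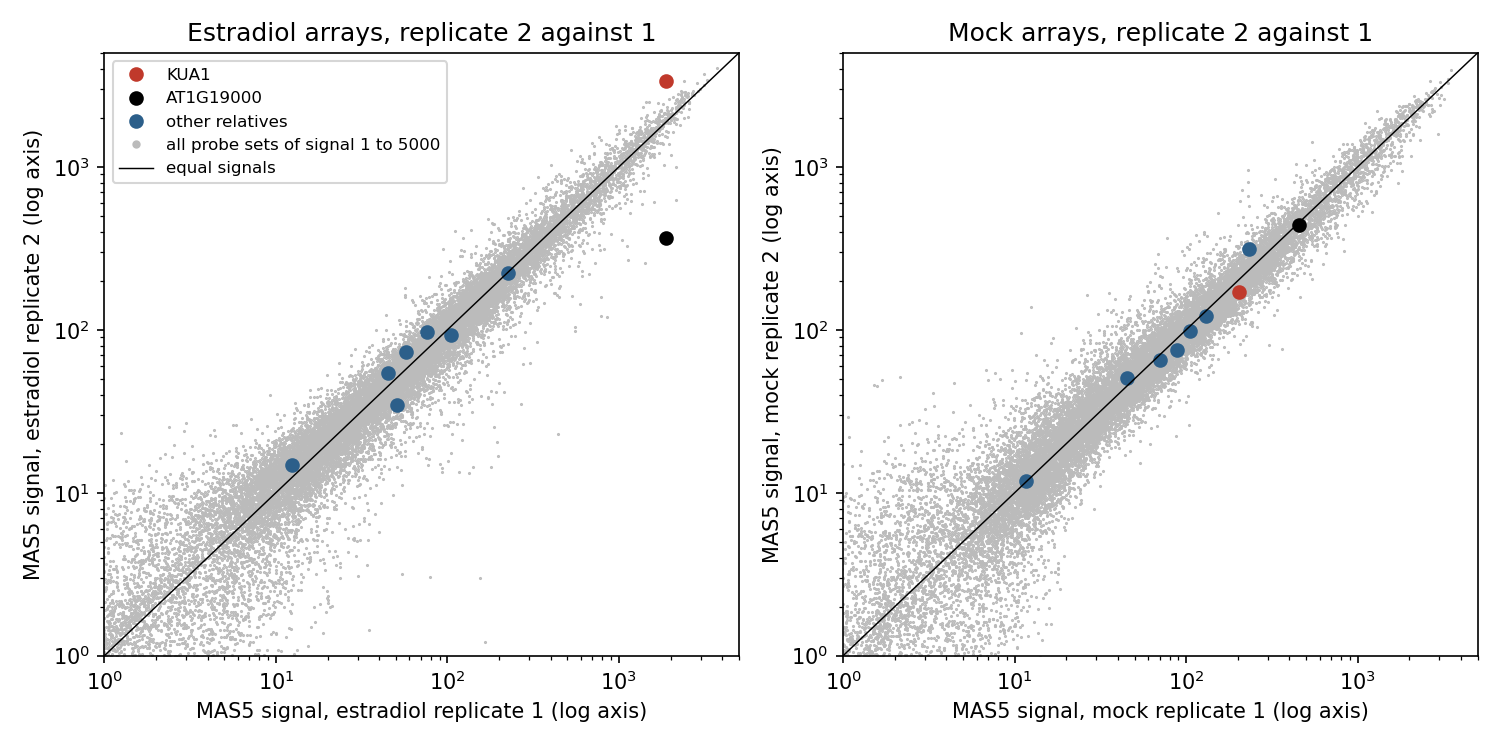
MAS5 signal of replicate 2 against replicate 1 on log axes, for the estradiol arrays (left) and the mock arrays (right), with all probe sets in grey, KUA1 in red, AT1G19000 in black, the other relatives in blue and a line of equal signals. AT1G19000 lies off the line in the estradiol panel, at 1880 and 368, and on it in the mock panel, at 452 and 440.

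In 4 relatives each estradiol array had less signal than each mock array. The lowest was AT1G49010, with signals of 57.5 and 72.7 after estradiol, against 105 and 98.3 in mock. Its groups did not overlap, and the gap between them was wider than that between replicates of either group. The mean was 65.1 ± 10.8 after estradiol and 102 ± 4.82 in mock (SD, n = 2 each), a log2 fold change of -0.65 (SE 0.19). The interval of -1.12 to -0.18 does not hold 0, but the adjusted p was 0.619, and 7.36% of all probe sets had a lower log2 fold change. It was the sole relative whose interval left out 0.

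AT3G16350 had signals of 45.3 and 54.3 in estradiol-treated seedlings, against 70.3 and 65.3 in mock-treated seedlings. AT5G08520 had 105 and 93.2 after estradiol, against 130.2 and 121 in mock. In both genes the groups were apart, by more than the replicates differed. The log2 fold change was -0.45 (SE 0.19) for AT3G16350. For AT5G08520 it was -0.35 (SE 0.16). Their adjusted p-values in limma were 0.792 and 0.817, and both intervals held 0. AT1G74840 had signals of 224 and 222 after estradiol, against 232 and 312 in mock. Its groups barely separated, since estradiol replicate 1 and mock replicate 1 differed by a log2 of only -0.048, and the log2 fold change was -0.27 (SE 0.18). These 4 were the only ones of the 9 genes with both estradiol arrays lower, against 18% of all probe sets. The 2 of the 9 with both estradiol arrays higher were KUA1 and AT5G61620, against 16.1%.

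AT1G70000 had signals of 75.7 and 97.1 in estradiol-treated seedlings, against 88.8 and 75.0 in mock-treated seedlings. AT5G58900 had 51.1 and 34.4 after estradiol, against 45.4 and 50.3 in mock. In both genes the groups overlapped. The log2 fold change of AT1G70000 was 0.071 (SE 0.20), the smallest of the family. That of AT5G58900 was -0.19 (SE 0.26). Without mock replicate 2 or without estradiol replicate 2 the value of AT1G70000 changed sign, to -0.050 and -0.11, and without estradiol replicate 2 that of AT5G58900 was 0.097. AT5G61620 had 12.5 and 14.9 after estradiol, against 11.6 and 11.9 in mock. This was the 1 relative that was dim in both groups. Its log2 fold change of 0.22 had an interval of -0.59 to 1.03, and it was -0.038 where signals short of an array's 40th percentile, as all 4 of its signals are, were set to that percentile.

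The 8 relatives as a set had a median log2 fold change of -0.23, beside -0.0080 over all probe sets, with 5 lower and 3 higher in mean. Single values ran from -0.65 for AT1G49010 to 0.90 for AT1G19000. In size, the median was 0.31, and 63.3% of all probe sets had a smaller difference. In 3 relatives, AT3G16350, AT1G49010 and AT5G08520, the difference between group means was larger than the difference between replicates in both groups. The share of all probe sets for which this holds was not computed, so the count is a description only. In the other 5 at least 1 pair of replicates lay further apart than the group means. The lower adjusted p-values of the family were those of KUA1 at 0.158 and AT1G49010 at 0.619, and the remaining ones reached 0.993. Without mock replicate 2 the median of the relatives was -0.085.

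**Figure D3:**
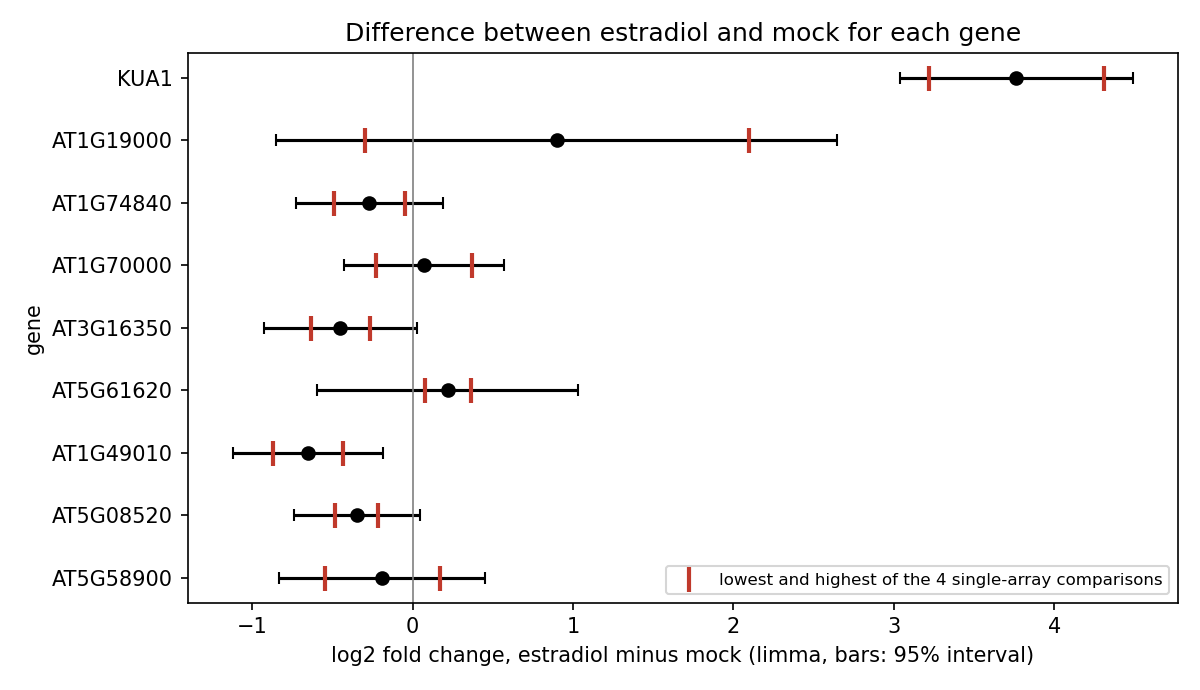
Log2 fold change of estradiol minus mock for each gene, with points for the limma estimate, black bars for the 95% interval and red ticks for the lowest and highest of the 4 comparisons of single arrays. The interval of KUA1 starts at 8.21-fold, above the upper end of every relative's interval, of which that of AT1G19000 at 6.26-fold is the highest.

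A p above the threshold does not show that the relatives stayed level, and the intervals give what these arrays allow. In 5 of the 8, namely AT1G74840, AT1G70000, AT3G16350, AT5G08520 and AT5G58900, the 95% interval lay within 2-fold in either direction. For AT1G49010 it reached 2.17-fold lower and for AT5G61620 2.04-fold higher. For AT1G19000 it ran from 0.56-fold to 6.26-fold, so these arrays bound its change the least. The interval of KUA1, from 8.21-fold upwards, met none of them.

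**Figure D4:**
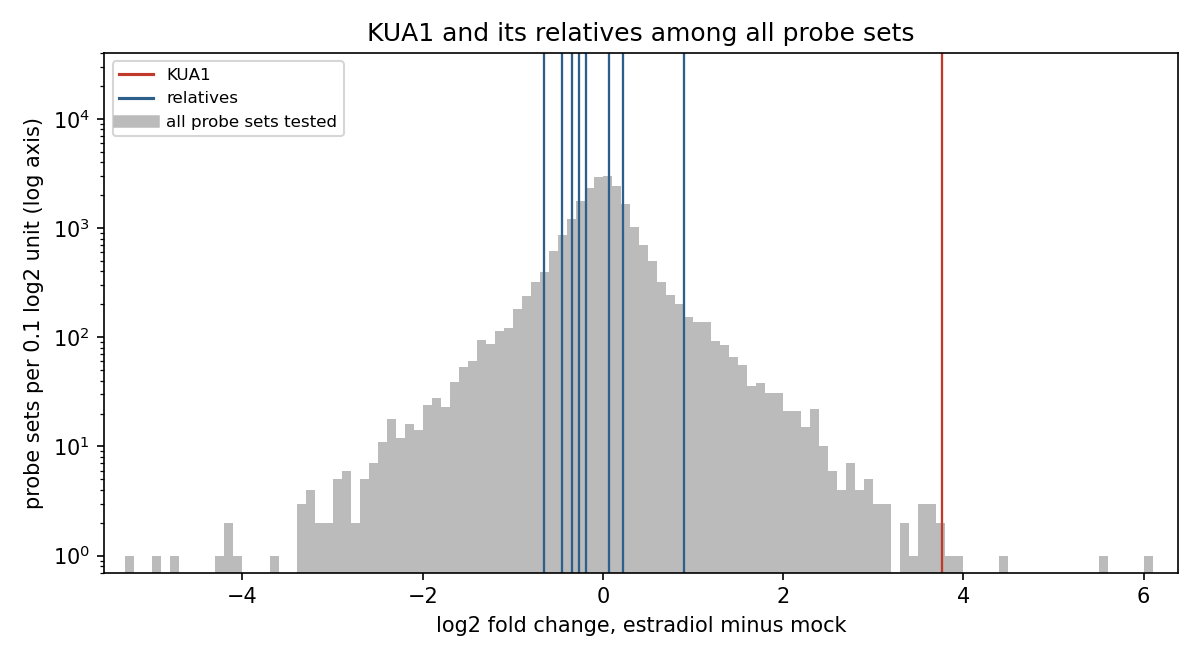
Number of probe sets per 0.1 log2 unit (log axis) by log2 fold change of estradiol minus mock, over 22746 probe sets, with KUA1 as a red line and the 8 relatives as blue lines. KUA1 lies at 3.76 in the far tail, and the relatives lie between -0.65 and 0.90. Of all probe sets, 7.36% lie lower than AT1G49010 at -0.65, and 95.6% lie lower than AT1G19000 at 0.90.

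Among probe sets matched to 1 locus, those whose course over the 4 arrays was nearest to KUA1 were those of ICL, AT1G71530 and GSTU3. Probe sets without a matched locus were left out of this ranking, so nearer ones may exist. Nearness was the root mean square difference between log2 signals, each taken relative to the gene's own mock mean. ICL encodes isocitrate lyase, an enzyme of the glyoxylate cycle, and lay 0.22 log2 units from KUA1. Its signals were 50.4 and 65.6 after estradiol, against 4.74 and 3.20 in mock. AT1G71530 lay 0.41 away with 6.39 and 6.42 after estradiol, against 0.43 and 0.61 in mock. GSTU3, a glutathione S-transferase, lay 0.51 away with 209 and 141 after estradiol, against 14.8 and 13.4 in mock. It was matched through the study's list of changed genes alone, chosen on these same arrays, so its own change let it into this ranking. All 3 were dim in mock, unlike KUA1, and AT1G71530 stayed in that range after estradiol, so these distances rest on dim signals.

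Other MYB-like genes were listed to set the family in context. A listed gene without a match may still be on the array. Of 9 genes of the DIVARICATA and I-box-binding type, 7 were matched to a probe set of their own, and 6 of these were dim in both groups. Past the study's thresholds were 0 higher and 0 lower, against 0.629% and 0.528% of all probe sets. Their median log2 fold change was -0.37, beside -0.0080 over all probe sets, and it rests mostly on dim genes. The bright member, AT5G04760, had signals of 201 and 183 after estradiol, against 171 and 152 in mock, with the groups apart and a log2 fold change of 0.25 (SE 0.15). In AT3G10590 and AT3G10580, both dim, the log2 fold changes were -0.99 and -0.71 with overlapping groups. Of 11 CCA1 and REVEILLE genes, morning factors of the circadian clock and their kin, 2 were matched to a probe set by the platform table. Of these, 0 passed the thresholds as higher and 0 as lower, against 0.629% and 0.528% of all probe sets. RVE8 was matched through the study's own list of changed genes alone, so that its passing as higher was fixed by the match and is no count for the list. It had 11.6 and 11.8 after estradiol, against 5.51 and 5.34 in mock, all dim. In the paper's quantitative PCR of the induced line, RVE8 was not marked as a significant change of more than 2-fold. AT5G52660 and AT4G01280 of the same list had log2 fold changes of -0.21 and 0.11 with overlapping groups. Of 7 single-repeat R3 MYB genes 1 was matched to a probe set, TRY, a repressor of trichome initiation. It had signals of 2.92 and 1.92 after estradiol, against 6.85 and 7.01 in mock. TRY was lower past the thresholds, as were 0.528% of all probe sets, at a log2 fold change of -1.55, dim in both groups. Neither RVE8 nor TRY passed on log2(signal + 32), which weighs dim signals less.

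Genes that factors of this family are known to control elsewhere gave few values. Of 3 alpha-amylases 1 was matched to a probe set, AMY1. It had 31.2 and 14.4 after estradiol, against 22.5 and 24.1 in mock, so that the groups overlapped. Of 12 anthocyanin genes 2 were matched to a probe set, both dim. UF3GT, a glycosyltransferase, had a log2 fold change of -0.97, with 17.4 and 5.11 after estradiol, against 19.4 and 17.6 in mock. DFR, the dihydroflavonol reductase, had 0.12. Past the thresholds were 0 of these 3 genes as higher and 0 as lower, against 0.629% and 0.528% of all probe sets. No probe set was matched to the 6 RADIALIS-like and the 3 telomere-binding MYB genes listed.

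The arrays themselves were alike in scale, with median signals of 37.5 and 36.1 after estradiol and 36.2 and 38.8 in mock. The log2 signals of pairs of arrays correlated at 0.956 to 0.966 across probe sets, as a description, highest between estradiol replicate 2 and mock replicate 1. Seedlings hold shoot and root. The shoot marker matched, the light-harvesting protein gene LHCB4.1, had 2149 and 2178 after estradiol, against 2382 and 2360 in mock. The root marker matched, PYK10, had 1861 and 1906 after estradiol, against 1994 and 2446 in mock. Each was the single matched gene of its list, of 6 shoot and 7 root genes, and both markers were lower on both estradiol arrays, as were 18% of all probe sets. Their part in the values of the relatives was not tested. In whole seedlings, fewer cells of a type and less RNA per cell cannot be told apart.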

How the data were processed

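The authors deposited signal intensities on a linear scale, 1 per probe set, summarised with MAS5 and scaled so that each array has a mean of 100.0 without the lowest and highest 2% of signals. The version of MAS5 and further between-array steps are not given in the sources used here. All signals were above 0, and log2 of them was taken with no offset. Of 22810 probe sets, 64 controls were left out.

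Probe sets were paired with loci through the platform table and RefSeq (TAIR10.1) or, where that table lists none, through the study's list of changed genes. The table lists 13513 of the tested probe sets with 1 gene and 503 with several, and does not list 8730, so a gene without a probe set here may be on the array. Coordinates and sequences were not used.

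Groups were compared with limma 3.58.1 in R 4.3.3 (lmFit and eBayes with an intensity trend, treatment only), with Benjamini-Hochberg adjustment of p-values over 22746 probe sets. The study's thresholds were applied as the methods' t-test of log2 signals together with 2-fold between geometric means. Here they gave 143 probe sets higher and 120 lower, which differ from the study's own counts of genes. The percentages passing are therefore not the study's own. Replicates are described as biological, and the number of arrays limits the precision. The code was tested on simulated data. The genes and 7 gene lists, with leaf and root markers, were chosen with earlier results of these data known. Named were all 9 measured genes and, from each list, the genes past the study's thresholds or up to 3 with the smallest limma p. Also named were the 3 nearest profiles to KUA1 among probe sets matched to 1 locus. The account of estradiol replicate 1 was added after the values of AT1G19000 were seen. Alternatives changed the scaling, the offset, the handling of dim probe sets, the intensity trend and the replicate block, or left out each array in turn.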

Additional observations from a re-analysis of the deposited data

How the results depend on the processing

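The log2 fold change of KUA1 ranged from 3.34 to 4.18 over 12 alternatives, and without single arrays its adjusted p lay between 0.0580 and 0.553. With the replicate number as a block, 0 of the 9 genes were called and KUA1 stayed at 3.76 (adjusted p = 0.150), and the block changed no call. Same-numbered arrays deviated from their group means with a correlation of -0.13, so the crossed pairing was added after seeing the data, which called 1 of the 9, KUA1 (3.76), and 3 probe sets in all. With signals raised to the 40th percentile, 2 of the 9 were called, KUA1 at 3.76 and AT1G19000 at 0.90. There 35.2% of probe sets sit at the floor on all 4 arrays, and the spread shared by limma shrinks by construction, which called 565 probe sets. The methods' t-test called 0 after adjustment.

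Quantile normalization, median scaling, log2(signal + 32) and limma without a trend left every one of the 9 directions and calls as they were. AT5G61620 reversed to -0.038 with the floor. Without single arrays, AT1G19000 ran from -0.28 to 2.08, AT1G70000 from -0.11 to 0.25 (with -0.050 between them), and AT5G58900 from -0.47 to 0.097, so that each reversed. The median of the 8 relatives ran from -0.30 to -0.085. Genes past the study's thresholds numbered 0 to 2, with 2 without estradiol replicate 2 (KUA1 and AT1G19000) and 0 without either mock array, and 0 on linear signals. With an array left out, its group has a single array, and the t-test takes its spread from the other group alone, so these counts are not read further. Both estradiol arrays were higher in 1 of the 9 with the floor or without dim probe sets. Without single arrays, 2 to 4 were higher and 4 to 6 lower, against 4 lower otherwise. The 6 are without estradiol replicate 1, where 1 estradiol array has to lie lower. Shares of all probe sets were not computed there, so these are descriptions. The CCA1 and REVEILLE genes (1 otherwise, RVE8 alone, chosen by the study on these arrays) and the R3 MYB genes past the thresholds numbered 0 each on log2(signal + 32), with the floor and with dim probe sets left out. Without single arrays the R3 count was 0 to 1 and the anthocyanin count 0 to 1. Past the thresholds over all probe sets were 30 higher and 6 lower on log2(signal + 32), 55 and 22 with the floor, and 59 and 24 of 14060 with dim probe sets left out, against 143 and 120.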

Other observations

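Of 13236 probe sets that were dim in neither group, 5 exceeded AT1G19000 in the gap between estradiol replicate 1 and the highest of the other 3 arrays. The widest gap was that of HB1, a hemoglobin known for its response to low oxygen, with signals of 787 and 159 after estradiol, against 102 and 118 in mock. AT4G01700, AT2G39530 and 2 probe sets without a gene name here were the others, with gaps of 2.08 to 2.18 log2 units beside 2.05 for AT1G19000 and 2.31 for HB1. These genes were singled out after their values were seen.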
